A study of Mus musculus with 12 samples.

Results

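The genes described here are 35 immediate early and dissociation response genes, taken by name from the 50508 gene models of a single-cell table of the adult mouse intestine. They were read in Dclk1-tdTom+ cells, cells carrying a red fluorescent reporter tied to the kinase gene Dclk1, sorted 1 per well from the longitudinal muscle and myenteric plexus (LMMP), the gut layer that holds enteric neurons and glia. The cells were gated on CD49b, a collagen-binding integrin subunit and the product of Itga2, which split them into a CD49b+ sort, labelled glial, and a CD49b− sort, labelled neuronal. Counts were unique molecular identifiers (UMIs), each standing for 1 captured transcript molecule. The 4 groups were irradiated CD49b+, homeostasis CD49b+, irradiated CD49b− and homeostasis CD49b− cells, with 3 plates of up to 96 wells each. Irradiated mice were C57BL/6 animals that received 3 mg tamoxifen at 8 or 9 weeks of age and 10.5 Gy of ionising radiation 7 days later. Homeostasis mice were of the same strain and had the same tamoxifen dose at the same ages, without irradiation. Collection was on day 10 after tamoxifen in all groups, and thus on day 3 after irradiation in the irradiated mice. All 4 groups therefore shared the reporter, the tamoxifen, the tissue preparation and the sort, and no group was left undissociated. Each plate came from a pool of 2 mice, and the CD49b+ and CD49b− plates of 1 pool were sorted from the same animals. The n below is thus 3 pools per group, and the p-values measure the spread between plates of these pools. The driver of the reporter's recombination is not given in the sources used here.

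Retained wells held at least 1000 UMIs and 500 genes, and numbered 213 of 287 in irradiated CD49b+, 223 of 288 in homeostasis CD49b+, 266 of 287 in irradiated CD49b− and 262 of 288 in homeostasis CD49b− cells. Their UMIs summed to between 150561 and 243340 on CD49b+ plates and between 541729 and 746674 on CD49b− plates, so that levels on CD49b+ plates rest on fewer molecules. The median well held 2110 to 2680 UMIs on CD49b+ plates and 5904.5 to 8335 on CD49b− plates. Levels are in CPM, the usual scaling of a gene's UMIs by all retained UMIs of its plate, except where another scaling is named below. The 13 glia markers summed to between 27632 and 36376 CPM on CD49b+ plates and to between 460 and 725 CPM on CD49b− plates. The 16 neuron markers summed to between 342 and 2356 CPM on CD49b+ plates and to between 9263 and 10551 CPM on CD49b− plates, and 1 of them, Uchl1, was at 0 on every plate. In 4 irradiated CD49b+ wells and 2 homeostasis CD49b− wells, the markers of the other sort outnumbered those of the well's own sort.

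Immediate early genes are transcribed within minutes of a stimulus from transcription factors that are already present in the cell, without new protein synthesis. Growth factors, calcium entry, ultraviolet or ionising radiation and mechanical or enzymatic tissue dissociation all induce them. Their products are transcription factors of the AP-1, EGR, NR4A and KLF families, and inhibitors that end the response, such as the MAP kinase phosphatases, the RNA-decay proteins of the ZFP36 family and SOCS3. In neurons, Fos, Arc and Npas4 are widely used as marks of recent electrical activity, and in dissociated tissue the same genes are known as a mark of the preparation.

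The promoter windows below belong to members whose levels differed between the 2 sorts in opposite directions, and they show which letters those members share. The windows run from 250 bases before to 50 after a start site in RefSeq (GRCm38.p6), are written 5′ to 3′ on the gene's own strand, and carry in capitals the cyclic AMP response element (CRE, TGACGTCA), its core (TGACG, or CGTCA where it lies on the other strand, and contained in the full element) and the serum response factor's CArG box. Nr4a1, which encodes an orphan nuclear receptor, has its window at chr15:101266596-101266895 (plus strand). Maff, which encodes a small MAF factor, has 3 start sites in the table, of which the window at chr15:79347270-79347569 (plus strand) is shown. Zfp36, which encodes the RNA-decay factor tristetraprolin, has its window at chr7:28379179-28379478 (minus strand). Dusp1, which encodes a MAP kinase phosphatase, has its window at chr17:26508423-26508722 (minus strand). The Nr4a1 and Dusp1 windows lie inside the longer gene spans given below.
Nr4a1: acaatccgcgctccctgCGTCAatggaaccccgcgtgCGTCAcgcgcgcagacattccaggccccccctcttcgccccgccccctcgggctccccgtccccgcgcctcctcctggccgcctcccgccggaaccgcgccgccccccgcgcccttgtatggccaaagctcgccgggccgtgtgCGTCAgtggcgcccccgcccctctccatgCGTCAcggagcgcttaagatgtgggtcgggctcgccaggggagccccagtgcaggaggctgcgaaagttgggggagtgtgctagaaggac
Maff: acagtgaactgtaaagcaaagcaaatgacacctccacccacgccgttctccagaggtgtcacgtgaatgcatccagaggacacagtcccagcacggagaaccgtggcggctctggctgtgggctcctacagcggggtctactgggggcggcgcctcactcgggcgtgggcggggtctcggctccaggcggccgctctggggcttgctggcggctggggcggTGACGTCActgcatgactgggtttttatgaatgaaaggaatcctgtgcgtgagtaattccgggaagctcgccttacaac
Zfp36: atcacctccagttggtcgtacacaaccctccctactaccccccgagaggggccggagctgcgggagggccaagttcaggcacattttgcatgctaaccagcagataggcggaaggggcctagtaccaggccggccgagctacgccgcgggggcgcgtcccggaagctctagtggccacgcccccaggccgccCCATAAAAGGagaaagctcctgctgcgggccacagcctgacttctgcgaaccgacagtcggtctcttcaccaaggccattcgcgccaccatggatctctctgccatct
Dusp1: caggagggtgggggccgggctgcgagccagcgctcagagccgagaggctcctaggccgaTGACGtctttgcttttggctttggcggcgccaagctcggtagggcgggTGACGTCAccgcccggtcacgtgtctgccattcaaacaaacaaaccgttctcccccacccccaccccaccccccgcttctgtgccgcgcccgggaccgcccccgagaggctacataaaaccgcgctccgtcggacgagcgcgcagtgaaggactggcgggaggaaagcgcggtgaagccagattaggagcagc
The Nr4a1 window held 4 cores and no full CRE, and the Zfp36 window held 1 CArG box and neither form of the CRE. The Maff window shown and the Dusp1 window each held 1 full CRE, Maff being higher and Dusp1 lower in CD49b+ cells, as given below. Of the Maff windows not shown, chr15:79348152-79348451 held 1 core and no full CRE, and chr15:79346371-79346670 held no match.

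Promoter entries were found for 28 of the 35 members, 34 windows in all; those without an entry were Fosl1, Egr1, Egr3, Klf10, Myc, Ier2 and Arc. Searched on both strands, TGACG was present in 17 of the 28 members (60.7%), against 23% of 27025 gene symbols with a window. The full CRE was present in Maff and Dusp1 (7.14% of the members, against 2.03% of symbols), and the CArG box in Egr2, Zfp36 and Dusp5 (10.7%, against 1.81%). The AP-1 site TGACTCA and the ETS site CCGGAAGT were in no member window, against 5.95% and 4.31% of symbols. A TATA box (TATAAA) was in 5 members (17.9%, against 15.7%). TGACG stood in 9 of the 18 higher and both of the 2 lower members that had a window, so the letters occurred on either side of the gate difference. These are matches of letters in a window, not sites shown to be bound.

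Of the 35 members, 32 had at least 1 UMI in the 964 retained wells. Fosl1, Egr3 and Dusp2 had none, which allows a level of up to 2.68 CPM over the CD49b+ plates and 0.750 CPM over the CD49b− plates, and a share of wells of up to 0.311%. For Fosl1 this limit may not hold, since 54.5% of its 31-base words are shared with the opposite-strand gene Ccdc85b and the use of strand in counting is not given. A further 5 members, Egr4, Nr4a3, Ier5, Dusp5 and Npas4, had UMIs and did not pass the filter on low counts. The 27 members that passed were tested among 8555 genes, and counts of tested members below do not speak for the other 8. The filter asks for a level on as many plates as 1 group holds, so a gene can pass through 1 sort alone. Maff, Egr2, Nr4a2, Klf2 and Zfp36l1 passed only through CD49b+ plates, and Klf10 and Arc only through CD49b− plates. Each was called higher in the sort through which it passed, so these calls, and counts that include them, are not separate from the filter. Chromosome positions are those of GENCODE vM21 on GRCm38. Member levels are CPM over the UMIs of the 8555 tested genes, with TMM scaling, which adjusts for differences in RNA composition, unless said otherwise. CPM ratios given with counting intervals use all retained UMIs without TMM.

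**Figure D1:**
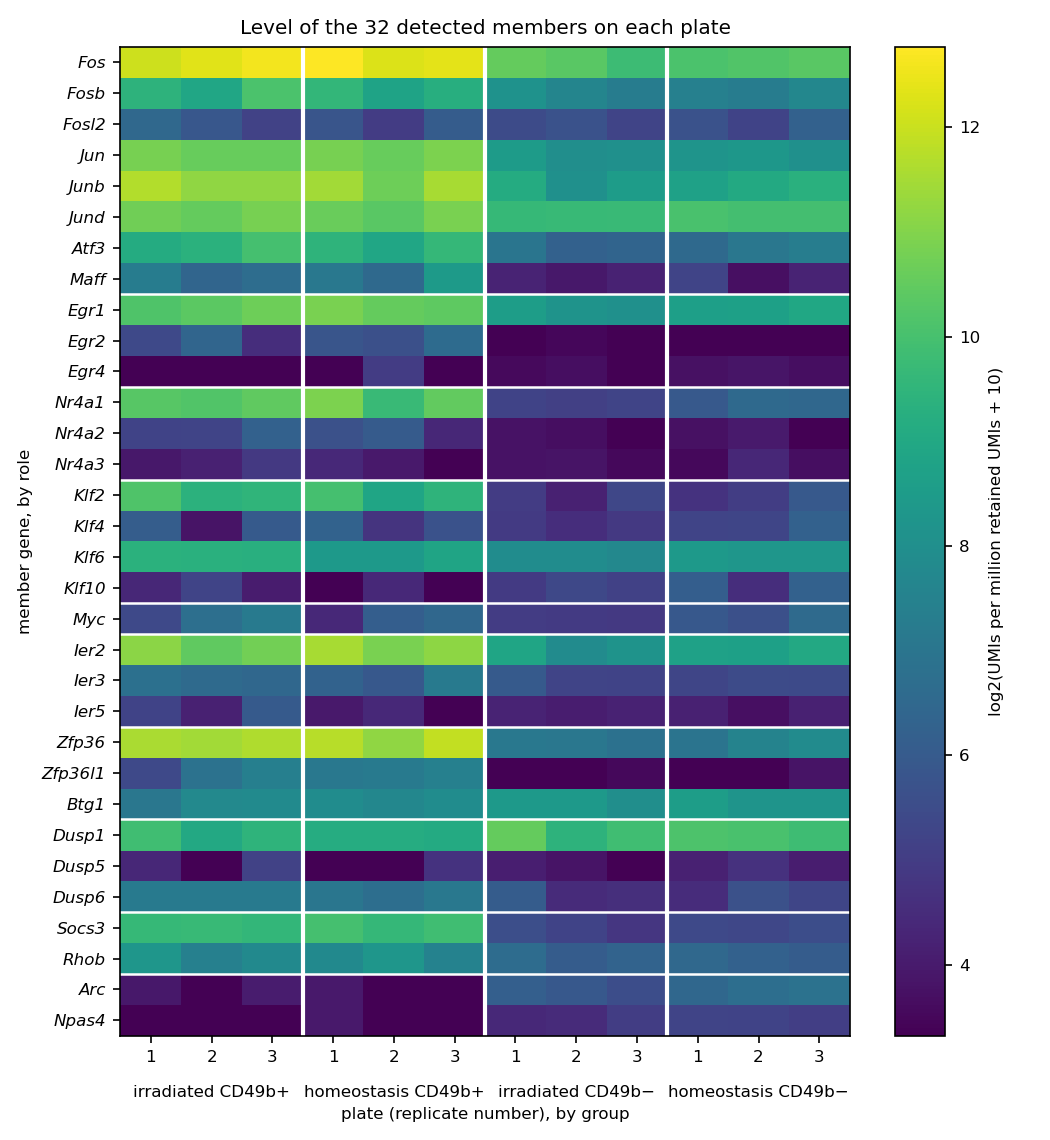
Level of the 32 members with at least 1 UMI on each of the 12 plates, as log2(CPM over all retained UMIs + 10) by colour, with members in rows by role and plates in columns by group. Most rows are brighter in the 6 CD49b+ columns on the left, while Klf10, Btg1, Dusp1, Arc and Npas4 tend to be brighter in the 6 CD49b− columns on the right.

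The members stood higher in CD49b+ cells: 21 of the 27 tested were higher and 4, Klf10, Btg1, Dusp1 and Arc, were lower than in CD49b− cells (edgeR quasi-likelihood F test over 12 plates, Benjamini-Hochberg adjusted p below 0.05), and Fosl2 and Klf4 were not called. The same test called 29.6% of all 8555 genes higher and 32.4% lower, 62.1% in all. The median log2 fold change of the 27 was 2.14, against −0.13 over all tested genes. The CD49b+ plates lay wholly above the CD49b− plates for 18 members, where 16% of all genes did so, and wholly below them for 2 members, Btg1 and Arc, where 19.4% did. Summed over all 35 members, UMIs made up 2.46%, 2.21% and 2.60% of the total on the irradiated CD49b+ plates and 2.87%, 1.99% and 2.65% on the homeostasis CD49b+ plates, against 0.706%, 0.509% and 0.494% on the irradiated CD49b− plates and 0.641%, 0.644% and 0.697% on the homeostasis CD49b− plates. Every CD49b+ plate thus stood above every CD49b− plate, and the difference of the group means was 1.85 percentage points in irradiated and 1.84 in homeostasis mice.

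Among the AP-1 factors, whose FOS and JUN proteins pair to bind DNA, 7 of the 8 tested were higher in CD49b+ cells. Fos (chr12:85473890-85477273) stood at 4757, 6022 and 6389 CPM in irradiated and 7190, 4860 and 5444 CPM in homeostasis CD49b+ plates, against 1635, 1391 and 959 CPM in irradiated and 1165, 1288 and 1392 CPM in homeostasis CD49b− plates. The lowest CD49b+ plate was well above the highest CD49b− plate, and within a sort the irradiated and homeostasis plates overlapped. Fos was higher by 2.15 on the log2 scale, or 4.43-fold (SE 0.178, adjusted p = 3.47e-10), in 6 of 6 pools. Jun (chr4:95049034-95052222) stood at 2006, 1730 and 1531 CPM in irradiated and 1867, 1493 and 1963 CPM in homeostasis CD49b+ plates, against 398, 263 and 284 CPM in irradiated and 309, 340 and 275 CPM in homeostasis CD49b− plates. Again no plate of one sort reached into the range of the other, and Jun was higher by 2.51 (SE 0.163, adjusted p = 4.90e-12). Junb, Fosb and Atf3, the last a stress-induced factor of the ATF family that pairs with JUN, were higher by 2.45 (SE 0.211), 1.79 (SE 0.199) and 2.72 (SE 0.203) on the log2 scale, in 6 of 6 pools each. Maff, whose product lacks an activation domain and pairs with other leucine zipper factors, was higher by 3.73 (SE 0.402). Jund, the JUN gene that is usually active without a stimulus, had the smallest called difference of this family at 0.78 (SE 0.146, adjusted p = 6.86e-05), and of its sequence words of 31 bases 50.1% also occur in the opposite-strand gene Gm11175. Whether counting used the strand is not given in the sources used here, so its reads and those of the partner gene cannot be told apart. Fosl2, a FOS-related gene, did not pass at 0.21 (95% interval −0.52 to 0.93), and its plates overlapped.

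The EGR zinc-finger factors divided by detection. Egr1 averaged 1495 ± 186 CPM in irradiated and 1577 ± 289 CPM in homeostasis CD49b+ plates, against 335 ± 76.6 CPM in irradiated and 462 ± 54.8 CPM in homeostasis CD49b− plates (SD, n = 3 each) and was higher by 1.97 (SE 0.162, adjusted p = 3.02e-10). Egr2, known as a regulator of myelination in Schwann cells, had 58 UMIs over the 6 CD49b+ plates and 1 over the 6 CD49b− plates, a CPM ratio of 207 with an exact 95% counting interval of 35.7 to 8306. The wide interval follows from the single CD49b− molecule and covers counting error only. Egr4 had 4 UMIs in CD49b+ and 10 in CD49b− cells, a ratio of 1.43 (exact 95% counting interval 0.326 to 4.94).

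The NR4A orphan nuclear receptors, whose activity is set largely by their transcription, differed strongly. Nr4a1 (chr15:101254269-101274795) stood at 1424, 1338 and 1429 CPM in irradiated and 1962, 827 and 1480 CPM in homeostasis CD49b+ plates, against 31.1, 26.2 and 31.2 CPM in irradiated and 56.1, 92 and 84.8 CPM in homeostasis CD49b− plates. All CD49b+ plates lay far above all CD49b− plates, and Nr4a1 was higher by 4.87 (SE 0.218, adjusted p = 5.50e-15). Nr4a2 followed with 3.71 (SE 0.590, edgeR adjusted p = 9.38e-06) on 41 UMIs in CD49b+ and 10 in CD49b− cells, having passed the filter on low counts only through CD49b+ plates. Nr4a3 had 9 UMIs in CD49b+ and 16 in CD49b− cells, a CPM ratio of 2.01 (exact 95% counting interval 0.781 to 4.82).

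The KLF zinc-finger factors went in different directions. Klf2, known as a shear-stress factor of endothelium and a factor of quiescence in lymphocytes, averaged 928 ± 304 CPM in irradiated and 737 ± 289 CPM in homeostasis CD49b+ plates, against 22.1 ± 12.2 CPM in irradiated and 32.9 ± 20.4 CPM in homeostasis CD49b− plates, higher by 4.92 (SE 0.288, adjusted p = 6.50e-13). Of the 10 endothelial markers, 8 had UMIs on CD49b+ plates, and Cdh5 and Cldn5 were at 0 on all of them. The list summed to between 21.7 and 72.8 CPM on CD49b+ plates and between 7.63 and 25.8 CPM on CD49b− plates. The part of endothelial RNA in the Klf2 result was not tested. Klf6 was higher by 0.83 (SE 0.147, adjusted p = 3.69e-05), with overlapping plates. Klf10, a gene induced early by TGF-beta, was lower by 2.12 on the log2 scale (−2.12, SE 0.591, adjusted p = 0.00355), on 12 UMIs in CD49b+ and 147 in CD49b− cells, and lower in 6 of 6 pools; without homeostasis CD49b− replicate 1 or 3 it no longer passed the filter on low counts, and without homeostasis CD49b+ replicate 2 the difference was −4.01. Klf4, one of the reprogramming factors, was not called at 0.47 (95% interval −0.49 to 1.43). Myc, a growth-promoting factor, was called higher at 0.89 (SE 0.342, adjusted p = 0.0278), with overlapping plates. That call was lost without irradiated CD49b+ replicate 2 or 3, homeostasis CD49b+ replicate 2 or 3, or homeostasis CD49b− replicate 1 or 2, the lowest value being 0.57 (adjusted p = 0.210) without homeostasis CD49b+ replicate 3.

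The RNA-decay and antiproliferative members also split. Zfp36 (chr7:28376784-28380253) stood at 3393, 3224 and 3293 CPM in irradiated and 3539, 2297 and 3921 CPM in homeostasis CD49b+ plates, against 143, 135 and 115 CPM in irradiated and 123, 196 and 242 CPM in homeostasis CD49b− plates. No plate overlapped between the sorts, and Zfp36 was higher by 4.38, or 20.9-fold (SE 0.201, adjusted p = 7.25e-15). Its relative Zfp36l1 had 134 UMIs in CD49b+ and 4 in CD49b− cells, a CPM ratio of 119 (exact 95% counting interval 45.6 to 445), and was called higher. With 0 UMIs on 4 of the 6 CD49b− plates its fitted log2 difference is loosely set, running from 4.89 in thinned wells to 7.99 without wells carrying the other sort's markers and standing at 7.84 without homeostasis CD49b− replicate 3, and 60% of its 31-base words are shared with the opposite-strand gene Gm26669. Btg1, an antiproliferative cofactor of RNA deadenylation, averaged 202 ± 54.6 CPM in irradiated and 222 ± 24.5 CPM in homeostasis CD49b+ plates, against 333 ± 57.7 CPM in irradiated and 342 ± 50.03 CPM in homeostasis CD49b− plates. It was lower in all 6 pools, at −0.67 on the log2 scale (SE 0.171, adjusted p = 0.00173).

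Of the feedback inhibitors, Socs3, which blocks cytokine signalling through JAK and STAT3, averaged 871 ± 86.7 CPM in irradiated and 915 ± 140 CPM in homeostasis CD49b+ plates, against 30.96 ± 11.7 CPM in irradiated and 36.3 ± 3.56 CPM in homeostasis CD49b− plates (SD, n = 3 each). Its difference of 4.74 (SE 0.190) had the lowest adjusted p of the members, 9.37e-16. Dusp6, which dephosphorylates ERK in the cytoplasm, was higher by 2.14 (SE 0.320, adjusted p = 4.06e-06), and by 3.47 in wells thinned to 1000 UMIs. Dusp1 (chr17:26505590-26562128), which dephosphorylates p38, JNK and ERK in the nucleus, ran the other way: it stood at 1024, 591 and 721 CPM in irradiated and 587, 560 and 547 CPM in homeostasis CD49b+ plates, against 1672, 724 and 1009 CPM in irradiated and 1194, 1166 and 974.99 CPM in homeostasis CD49b− plates. The 2 sorts overlapped over all plates, and in each of the 6 pools the CD49b+ plate was the lower one (−0.76 on the log2 scale, SE 0.189, adjusted p = 0.00133). Dusp5, a nuclear ERK phosphatase, had 9 UMIs in CD49b+ and 27 in CD49b− cells, a CPM ratio of 1.19 (exact 95% counting interval 0.492 to 2.60), with 21.2% of its words shared with the opposite-strand gene AC137853.2. Rhob, a small GTPase of endosomes and actin, was higher by 1.64 (SE 0.204), Ier2 by 2.40 (SE 0.198) and Ier3, known as a modulator of apoptosis, by 1.32 (SE 0.271). Ier5 had 18 UMIs in CD49b+ and 29 in CD49b− cells, a pooled CPM ratio of 2.21 (exact 95% counting interval 1.16 to 4.12). Of these UMIs, 15 were on irradiated and 3 on homeostasis CD49b+ plates, against 16 on irradiated and 13 on homeostasis CD49b− plates. The pooled ratio thus does not describe homeostasis plates, where Ier5 stood at 5.74, 11.2 and 0 CPM in CD49b+ and 8.19, 3.05 and 8.04 CPM in CD49b− cells (all retained UMIs).

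Both neuronal activity genes lay with the neuronal sort. Arc, which encodes a synaptic protein with a capsid-like fold, had 3 UMIs in CD49b+ and 290 in CD49b− cells, a CPM ratio of 0.0369 (exact 95% counting interval 0.00756 to 0.109), and was called lower (adjusted p = 3.32e-08). Npas4, a neuron-specific factor induced by calcium entry, had 1 UMI in CD49b+ and 84 in CD49b− cells, a ratio of 0.0424 (exact 95% counting interval 0.00106 to 0.243), and was too low overall for the test. The 15 tested neuron markers were all lower in CD49b+ cells, with a median of −4.86, the same direction as Arc and Npas4.

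**Figure D2:**
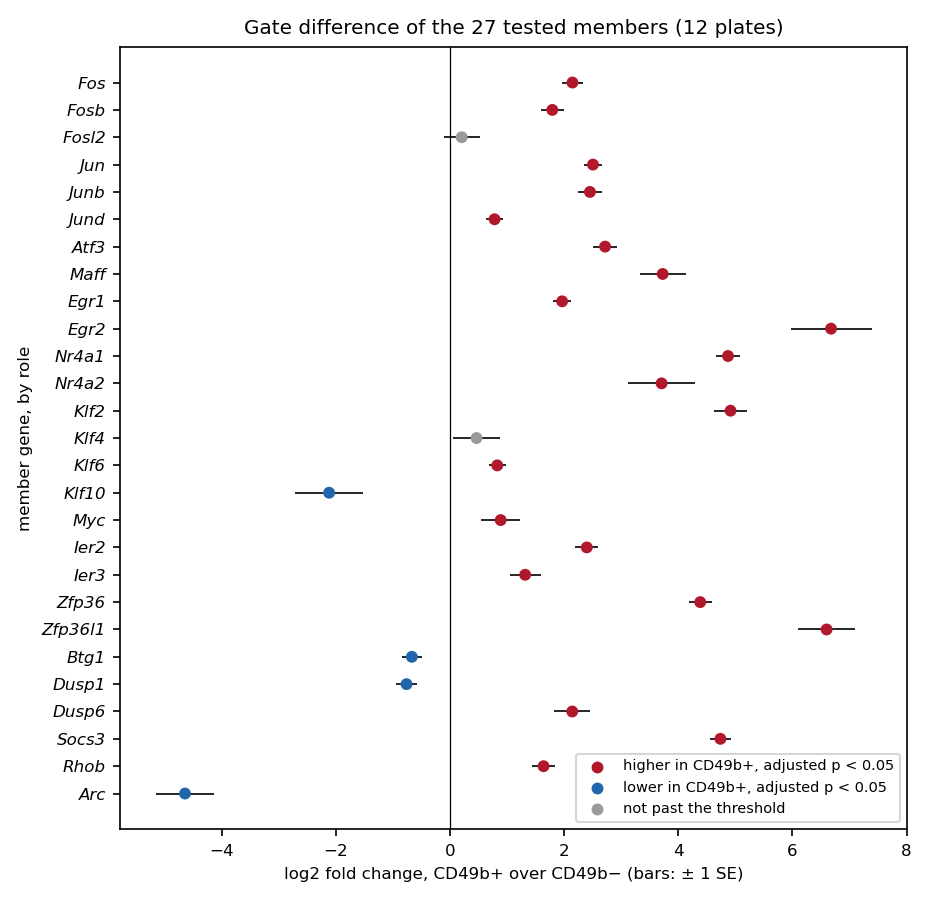
Log2 fold change of the 27 tested members, CD49b+ over CD49b−, from the fit over 12 plates, with bars of ± 1 SE and colour for the call at an adjusted p of 0.05. Of the points, 21 are higher in CD49b+ and called, Klf10, Btg1, Dusp1 and Arc are lower and called, and Fosl2 and Klf4 are not called; the Egr2 and Arc points rest on 1 and 3 UMIs in the sort where they are low.

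A level in CPM shows a share of the cell's RNA, and CD49b− wells held more UMIs. Counted as UMIs per retained well, 12 of the 21 members called higher were still higher in CD49b+ cells in 6 of 6 pools, as were 24.2% of all genes called higher. The plates did not overlap for 9 of all 27, namely Fos, Jun, Maff, Egr2, Nr4a1, Klf2, Zfp36, Zfp36l1 and Socs3, where 5.23% of all genes were higher with no overlap. Fos averaged 13.96 UMIs per well in CD49b+ and 9.04 in CD49b− plates, and Zfp36 averaged 7.96 in CD49b+ and 1.13 in CD49b− plates. For Jund, Klf6, Myc and Ier3 the mean per well was lower in CD49b+ plates, opposite to their share: Jund averaged 4.13 UMIs per well in CD49b+ and 6.92 in CD49b− plates, and Klf6 1.31 in CD49b+ and 2.04 in CD49b− plates. All 4 members called lower were lower per well with no overlap of plates, as were 57.3% of all genes and 98.5% of those called lower, Dusp1 averaging 1.63 UMIs per well in CD49b+ and 7.62 in CD49b− plates. This comparison was added after the data had been seen. The part of capture efficiency and of RNA content per cell in these values was not tested.

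To set detection side by side, each well was thinned to 1000 UMIs. Fos then had at least 1 UMI in 97.7% of wells in irradiated and 97.6% in homeostasis CD49b+ cells, against 63.3% in irradiated and 63.6% in homeostasis CD49b− cells (means of 3 plates). Nr4a1 was detected in 60.5% of irradiated and 61.6% of homeostasis CD49b+ wells, against 2.67% of irradiated and 4.75% of homeostasis CD49b− wells. Dusp1 was detected in 38.9% of irradiated and 34.3% of homeostasis CD49b+ wells, against 46.3% of irradiated and 54.8% of homeostasis CD49b− wells. The share of wells was higher in CD49b+ cells in all 6 pools for 18 members, where 15.7% of the 8555 tested genes were higher, and lower in all 6 for Arc and Btg1, where 17.7% of genes were lower. Thinned to 2000 UMIs, 19 members were higher (19.2% of genes) and 3 lower (23.9% of genes), namely Arc, Klf10 and Npas4. Unthinned, these counts were 14 higher (7.04% of genes) and 5 lower (68.1% of genes), the lower members being Arc, Btg1, Dusp1, Klf10 and Npas4. As a measure of RNA from other cells, the glia marker S100b stood at 703 to 1366 CPM on CD49b+ plates and 31.4 to 45.8 CPM on CD49b− plates, and Sox10 had 2 UMIs over all CD49b− plates. On the same scale Nr4a1 stood at 24.3 to 28.5 CPM on irradiated and 52.4 to 83.9 CPM on homeostasis CD49b− plates, and Socs3 at 18.5 to 38.8 CPM on irradiated and 30.5 to 37.5 CPM on homeostasis CD49b− plates. Whether these UMIs came from the sorted cell was not tested.

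Every retained well of either sort held member UMIs, at least 0.215% of its UMIs on CD49b+ plates and at least 0.0417% on CD49b− plates. The median thinned well held UMIs of 8 to 11 different members on the CD49b+ plates and of 3 to 4 on the CD49b− plates. At least 5 members were found in 89.3% to 100% of wells on a CD49b+ plate and in 29.2% to 48.9% on a CD49b− plate. Every thinned CD49b+ well had at least 2 members, while after thinning 2, 6 and 8 wells on the irradiated and 1, 3 and 0 wells on the homeostasis CD49b− plates had none. The highest single wells reached 4.61% to 5.12% of their UMIs on CD49b+ plates and 2.00% to 3.52% on CD49b− plates. On the CD49b− plates the member share was lower in deeper wells (Spearman correlations over the wells of a plate from −0.448 to −0.284), whereas on CD49b+ plates it ran between −0.0845 and 0.199. These correlations describe wells that share plate and pool, and the member share has the depth in its denominator.

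**Figure D3:**
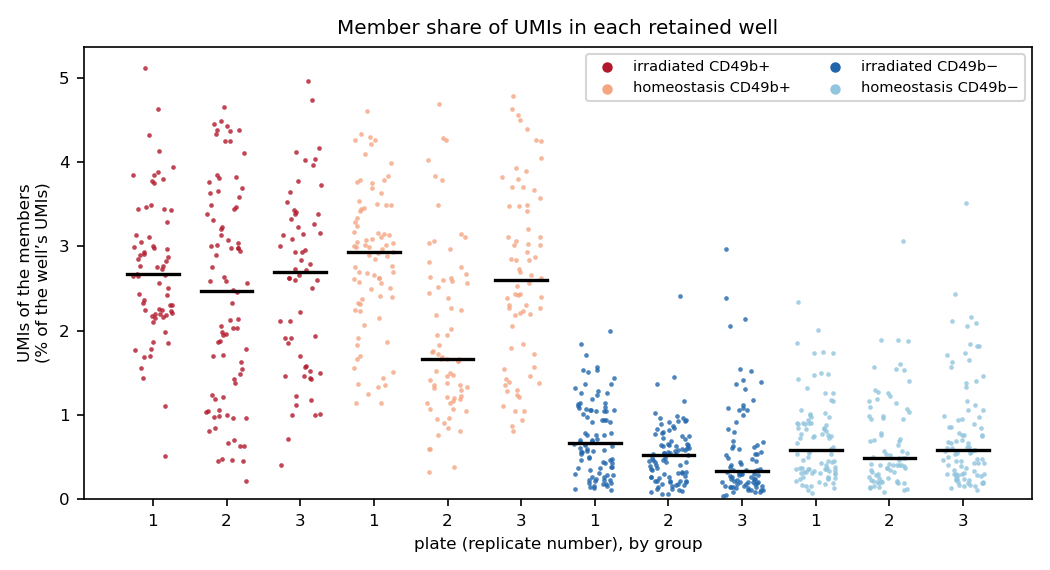
UMIs of the 35 members as a percent of all UMIs in each of the 964 retained wells (points), by plate and group, with a bar at each plate's median. The median wells sit between 1.67% and 2.93% on CD49b+ plates and between 0.334% and 0.667% on CD49b− plates, where single wells reach 2.00% to 3.52%.

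The genes that varied most like Fos from well to well included other members in all 4 groups. The likeness was the Spearman correlation of a gene's share of UMIs with that of Fos over the wells of a plate, averaged over 3 plates, for genes with at least 0.25 UMIs per well. It is a description, because wells share plate, pool and depth. Among 5009 genes in irradiated CD49b− cells, 6 of the 10 genes most like Fos were members, and among 5173 in homeostasis CD49b− cells 8 of the 10 were. Among 2059 genes in irradiated CD49b+ cells 6 of the 10 were members, and among 1889 in homeostasis CD49b+ cells 4 of the 10 were. Dusp1 was the most alike in irradiated CD49b− cells (0.679) and second in homeostasis CD49b− cells (0.669), and Egr1 was second in irradiated (0.638) and first in homeostasis CD49b− cells (0.707). So Dusp1, whose level was lower in CD49b+ cells, varied closely with Fos among CD49b− cells. In CD49b+ cells Zfp36 was the gene most like Fos, at 0.536 in irradiated and 0.461 in homeostasis cells, and Dusp1 reached 0.20 in irradiated and 0.19 in homeostasis cells. The members' median was 0.262 in irradiated and 0.210 in homeostasis CD49b+ cells, against 0.406 in irradiated and 0.329 in homeostasis CD49b− cells, while the median of all genes in each group lay between −0.0296 and −0.00160. In that order the members' medians covered 18, 18, 15 and 20 members, not the same genes in each group. CD49b+ wells also held fewer UMIs, and the part of depth in the contrast between the sorts was not tested. Btg2, an antiproliferative gene outside the 35, was among the 10 in all 4 groups, at 0.422, 0.367, 0.462 and 0.545 in irradiated CD49b+, homeostasis CD49b+, irradiated CD49b− and homeostasis CD49b− cells. Btg1, the member related to it, stood at 0.406 in irradiated and 0.349 in homeostasis CD49b− cells, and at 0.0255 in irradiated and −0.140 in homeostasis CD49b+ cells. Plates differed widely, Zfp36 running from 0.276 to 0.772 over the 3 irradiated CD49b+ plates.

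**Figure D4:**
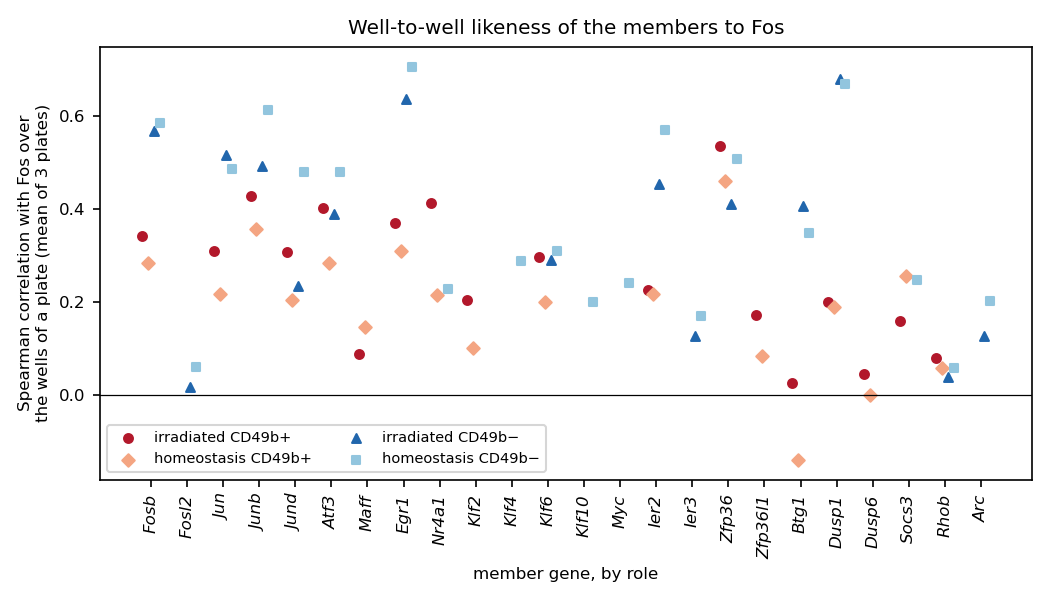
Spearman correlation of each member with Fos over the wells of a plate, averaged over the 3 plates of a group, for members with at least 0.25 UMIs per well in that group. In CD49b− cells Dusp1 and Egr1 lie highest, between 0.638 and 0.707, and in CD49b+ cells Zfp36 lies highest at 0.536 and 0.461.

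No member passed the edgeR test for irradiation in CD49b+ cells, and Klf6 came nearest to it. Of the 27 tested members 0 were called in either direction by edgeR, where 0.713% of all genes were called, 0.666% higher and 0.0468% lower. At an unadjusted p below 0.05, 1 member was higher and 0 were lower, where 7.94% of all genes were higher and 2.7% lower. DESeq2 called 1 member higher, where it called 105 of 8555 genes higher. Fos differed by −0.03 on the log2 scale (95% interval −0.59 to 0.53), Jun by −0.01 (−0.52 to 0.49), Nr4a1 by −0.03 (−0.60 to 0.55) and Zfp36 by 0.02 (−0.54 to 0.58). The members' median was 0.18, against 0.09 over all genes. The member in question was Klf6 (chr13:5861482-5870394), a zinc-finger factor known to be induced by injury in several tissues. Klf6 stood at 715, 728 and 633 CPM in irradiated CD49b+ plates, against 344, 327 and 461 CPM in homeostasis CD49b+ plates. Each irradiated plate lay above each homeostasis plate, as it did for Dusp1 and Dusp6, and as it did for 6.72% of all genes; 0 members had all irradiated plates below, where 4.21% of genes did.

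The difference in Klf6 was 0.87 (SE 0.213, adjusted p = 0.0561, a 1.83-fold higher level), just short of the threshold. With wells thinned to 1000 UMIs, Klf6 was detected in 50.7%, 39.3% and 31.7% of wells on irradiated CD49b+ plates, against 17.3%, 28.6% and 23.6% on homeostasis CD49b+ plates. It passed with DESeq2 (0.83, adjusted p = 0.00191), in wells of at least 2000 UMIs and 1000 genes (0.88, adjusted p = 0.0483) and without irradiated CD49b+ replicate 3 (0.95, adjusted p = 0.0217), and over all alternatives its adjusted p ran from 0.00191 to 0.264. Neuron markers were higher in the irradiated CD49b+ plates too, 6 of the 15 tested being called, summing to between 485 and 2356 CPM against 342 to 566 CPM in homeostasis CD49b+ plates. Without wells in which the other sort's markers outnumbered their own, Klf6 differed by 0.96 and passed (edgeR adjusted p = 0.0342 among 8222 genes). Those wells were 4 of irradiated CD49b+ and 2 of homeostasis CD49b− cells. The part of neuronal RNA in the remaining wells was not tested. The macrophage markers summed to between 13.3 and 135 CPM in irradiated and between 11.2 and 594 CPM in homeostasis CD49b+ plates. Of these 13 markers, 7 had UMIs on CD49b+ plates, and Ptprc, Adgre1, Csf1r, C1qa, Fcgr1 and Aif1 were at 0 there. The part of macrophage RNA in the Klf6 result was not tested. Sets of library indices were only inferred, from plate numbers in the labels. By that inference only the replicate 1 plates shared a set across treatments, and their ratio of Klf6 was 2.08. Of the 26 members with UMIs on both of these CD49b+ plates, 13 had a ratio above 1, as had 54.2% of all genes.

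In CD49b− cells no member passed the test for irradiation. edgeR called 0 of the 27 in either direction, where 0.0468% of all genes were called higher and 0% lower. DESeq2 called 0 members, where it called 4 of 8555 genes. At an unadjusted p below 0.05 in edgeR, 6 members were lower and 0 higher, where 2.13% of all genes were lower and 2.01% higher. The median log2 difference was −0.44, against 0.00 over all genes, and 20 of the 27 were below 0. Each irradiated plate lay below each homeostasis plate for 7 members, Jund, Egr1, Nr4a1, Klf4, Klf6, Myc and Arc, as for 6.34% of all genes, and above for 0 members, where 6.45% of genes did so. Members vary together from well to well, as given above, so they are not 27 separate observations.

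Nr4a1 gave the lowest adjusted p of these. Its 3 irradiated CD49b− plates, listed above, stood between 26.2 and 31.2 CPM, against 56.1 to 92 CPM in homeostasis CD49b− plates, and the difference was −1.40 (SE 0.328, adjusted p = 0.263). With no filter on low counts, it passed (−1.38, adjusted p = 0.00576), and over all alternatives it ran from −1.58 to −0.72. Myc stood at 24.9, 21.8 and 21.8 CPM in irradiated CD49b− plates, against 54.4, 43.5 and 93.5 CPM in homeostasis CD49b− plates, a difference of −1.49 (SE 0.430, adjusted p = 0.817) that also passed without the filter (−1.47, adjusted p = 0.0480). Klf6 stood at 263, 251.5 and 221 CPM in irradiated CD49b− plates, against 361, 331 and 324 CPM in homeostasis CD49b− plates (−0.47, SE 0.20). Klf4 differed by −1.20 (SE 0.493) and Arc by −0.90 (SE 0.298), Arc standing at 70.5, 55.2 and 40.5 CPM in irradiated and 84.2, 105 and 116 CPM in homeostasis CD49b− plates. Fos, Jun and Dusp1 differed by 0.05, 0.03 and 0.03. Glia markers summed to between 460 and 631 CPM in irradiated and between 560 and 725 CPM in homeostasis CD49b− plates. Without wells carrying mostly the other sort's markers, 2 of them homeostasis CD49b− wells, Nr4a1 differed by −1.40 and Myc by −1.49. The part of glial RNA in the remaining wells was not tested. The replicate 1 plates share an index set by the inference from plate numbers. Between them the ratio of irradiated to homeostasis was 0.554 for Nr4a1, 0.457 for Myc and 0.728 for Klf6. It was 1.40 for Fos, 1.29 for Jun and 1.40 for Dusp1. Of the 25 members with UMIs on both plates, 14 had a ratio above 1 and 11 below, with a median of 1.16, where 50.2% of all genes had a ratio above 1. At the other replicates the inferred index set and treatment cannot be told apart.

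**Figure D5:**
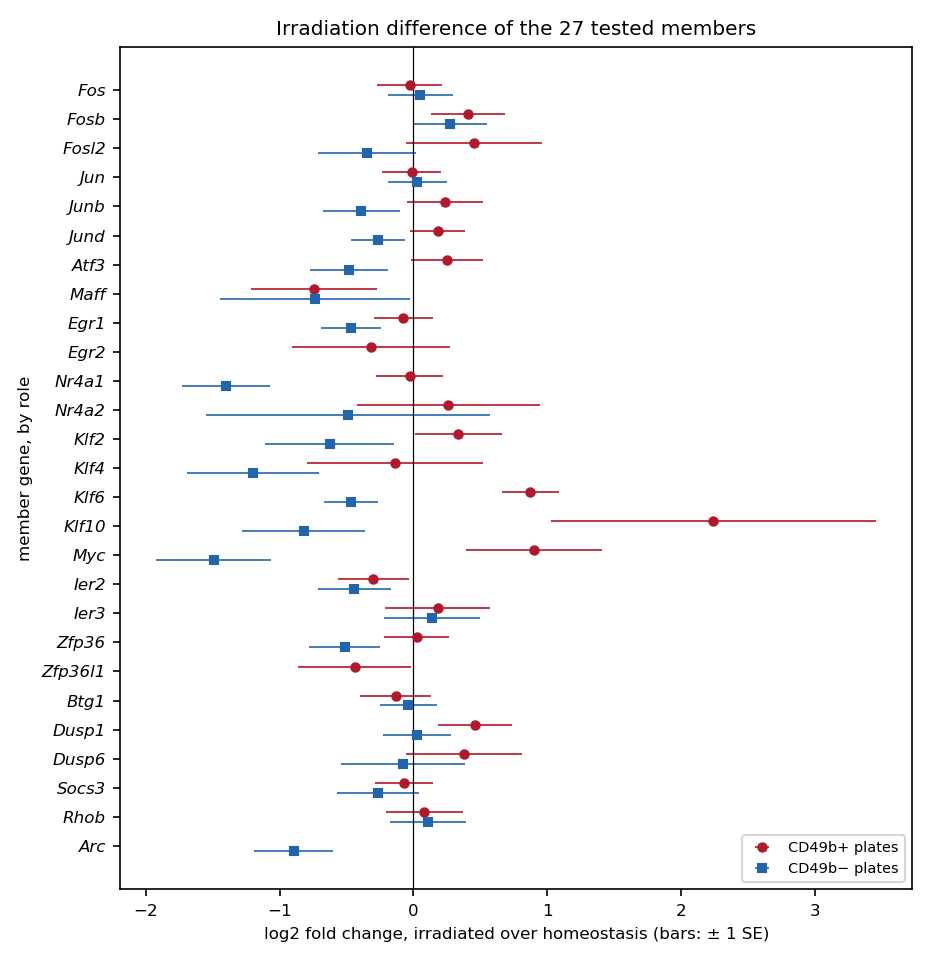
Log2 fold change of the tested members, irradiated over homeostasis, in CD49b+ plates (circles) and CD49b− plates (squares), with bars of ± 1 SE; Arc in CD49b+ and Egr2 and Zfp36l1 in CD49b− plates, with at most 3 UMIs in either group, are not drawn. Klf6 lies at 0.87 in CD49b+ and −0.47 in CD49b− plates, and no member passed an adjusted p of 0.05.

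The difference between the irradiation effects of the 2 sorts was tested directly. edgeR called 0 of the 27 members, where 0.0117% of all genes were called higher. DESeq2 called 1 member, where it called 33 of 8555 genes, all higher. At an unadjusted p below 0.05 in edgeR, 4 members, Nr4a1, Klf6, Klf10 and Myc, were higher, where 5.9% of all genes were. At that p 0 were lower, where 1.68% of genes were. For Klf6 the CD49b+ effect exceeded the CD49b− effect by 1.34 (SE 0.292, adjusted p = 0.0885), and DESeq2 gave 1.30 (adjusted p = 4.28e-04). For Myc the excess was 2.39 (SE 0.666, adjusted p = 0.203) and for Nr4a1 1.37 (SE 0.413, adjusted p = 0.295). Without irradiated CD49b+ replicate 3 Klf6 passed in edgeR (1.42, adjusted p = 0.0116). Summed over the members, the share of UMIs differed between irradiated and homeostasis plates by −0.0821 percentage points in CD49b+ and −0.0912 in CD49b− cells. The SD over plates was 0.198 in irradiated and 0.456 in homeostasis CD49b+ cells, and 0.118 in irradiated and 0.0316 in homeostasis CD49b− cells. The CD49b+ difference turned to 0.0241 without irradiated CD49b+ replicate 2 and to 0.102 without homeostasis CD49b+ replicate 1, and the plates overlapped in both sorts: between the replicate 1 plates the share was 0.706% in irradiated and 0.641% in homeostasis CD49b− cells.

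Lists of related genes, chosen with earlier results of these data known, stood beside the members. Of 30 other rapid response and dissociation genes, 24 were tested, and 20 were higher and 2 lower in CD49b+ than in CD49b− cells, with a median of 2.35, close to the members' 2.14. Those with the largest differences were Cyr61, a matrix protein induced by YAP (8.79, SE 0.349), Cebpd (7.05, SE 0.360), Hes1, a target of NOTCH (6.21, SE 0.238), and Gadd45b (5.68, SE 0.434). The heat shock genes split: 4 of 12 were higher, Hspa1b (4.64), Hspa1a (3.99), Dnajb1 (3.87) and Hspb1 (3.01), and 7 were lower. Of 7 tested delayed activity genes of neurons, 3 were higher and 4 lower, with the largest differences in the vesicle and secretory genes Syt4 (−7.45), Scg2 (−6.01) and Vgf (−5.76), all lower, and in Rasl11b (5.95), which was higher. Of 6 tested ERK feedback genes, 3 were higher and 2 lower, among them Spry1 (2.91) and Spry2 (2.59), higher, and Etv1 (−2.97) and Spred2 (−2.05), lower, and of 15 tested kinases and factors upstream of immediate early genes 4 were higher and 5 lower, with a median of 0.01, shares near the 29.6% and 32.4% of all genes. After irradiation no gene of these 5 lists was called in either sort, and at an unadjusted p below 0.05 in CD49b+ cells 5 of the 7 delayed activity genes were higher, alongside the neuron markers given above.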

How the data were processed

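The authors deposited 1 table of UMI counts per gene and well; per the submitters' processing notes it involved STAR 2.5.3a, featureCounts 1.5.3, GRCm38 and GRCh38, and their roles, UMI collapsing and the use of strand are not given in the sources used here. Wells with at least 1000 UMIs and 500 genes were kept and summed per plate. Plate sums were tested with edgeR 4.0.16 (R 4.3.3; TMM, filterByExpr, quasi-likelihood F test, 4 group means, Benjamini-Hochberg over 8555 genes at 0.05, two-sided), with DESeq2 1.42.0 as an alternative. Detection used wells thinned to 1000 UMIs (seed 1). Intervals of counts and floors of 3 counts cover counting error only.

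The 35 members and the other lists were chosen with earlier results of these data known, and the genes named are the members, up to 4 genes of each other list with the largest called differences, marker genes that check the labels, and the 10 genes most like Fos. Same-numbered plates of the 2 sorts share a pool, from mouse identifiers in the labels; correlations of their residuals ran from −0.0336 to 0.184. Other choices tried were well filters, thinning, library totals, no low-count filter, a term for the inferred index set and leaving out each plate. No column was left without a sample.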

Additional observations from a re-analysis of the deposited data

Results flagged for a closer look

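Members were also found in wells left out of the comparisons for low depth. Their UMIs made up 2.29% of the total in 139 CD49b+ wells that were left out, against 2.45% in the retained ones, and 0.786% in 47 CD49b− wells that were left out, against 0.610% in the retained ones. Both lie above the limit that a count of 0 allows, 0.00939% in CD49b+ and 0.0363% in CD49b− wells.

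For Klf6 the irradiation effect differed between the sorts by 1.34 on the log2 scale (CD49b+ minus CD49b−, SE 0.292), with every irradiated plate higher in CD49b+ and lower in CD49b− cells. The test of that difference missed the threshold in edgeR (adjusted p = 0.0885).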

How the results depend on the processing

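No member reversed a called direction in any refit with edgeR or DESeq2; per retained well, Jund, Klf6, Myc and Ier3, called higher, had the lower mean in CD49b+ cells. In wells thinned to 1000 UMIs 16 members were higher and 1 was lower in CD49b+ cells, where 21 and 4 had been. Of the 2391 genes tested there, 784 were called higher and 1528 in either direction. Maff, Egr2, Nr4a2, Klf10, Myc, Ier3 and Arc, called in the main fit, did not pass the filter on low counts there and were not tested. Btg1 was tested there and missed the threshold (−0.44, edgeR adjusted p = 0.0869). For irradiation in CD49b+ cells, 1 member (Klf6) was called, against 0, in wells with at least 2000 UMIs and 1000 genes, without wells carrying the other sort's markers, and with DESeq2. In that order, 61 of 8434, 23 of 8222 and 105 of 8555 genes were called higher. In CD49b− cells 2 members (Nr4a1 and Myc), against 0, were called lower without the filter on low counts, where 45 of 26315 genes were called in either direction. For the difference between the sorts, 1 was called, against 0, without that filter (Myc, where 63 of 26315 genes were called higher) and with DESeq2 (Klf6, where 33 of 8555 were). The cause was not tested. Leaving out 1 plate gave 20 to 21 higher and 3 to 5 lower members between the sorts, 0 to 1 higher for irradiation in CD49b+ cells and 0 to 1 for the difference, the 1 being Klf6 without irradiated CD49b+ replicate 3. With unthinned wells 5 members, against 2, were detected in fewer CD49b+ wells in all 6 pools. Per retained well, an alternative added after seeing the data, plates did not overlap for 9 higher and 4 lower members (5.23% and 57.3% of all genes), against 18 and 2. Library totals without TMM moved the median of all genes for irradiation in CD49b+ cells to −0.02, against 0.09. The replicate block on pools gave 21 higher and 4 lower members and 0 for the difference, and changed no call. No paired analysis was possible for irradiation within a sort because the treatments used different mice. Depth limits the members with few UMIs, and 3 plates per group limit the irradiation comparisons.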
